A study of Mus musculus with 4 samples.

Results

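The interleukin-6 (IL-6) family was described by 9 of the 22716 genes listed in the 4 count matrices of mouse sciatic nerve cells. The 9 genes were taken by name and not by a filter on their levels, but with earlier results of these data known. They were the ligand genes Il6, Lif, Clcf1, Osm, Il11 and Cntf and the receptor genes Il6st, Lifr and Osmr. All 9 had a row in the matrices of the 3 days post-injury (DPI) nerve and of the bead-prepared neonatal nerve, and 8 had a row in each of the others. Cntf had no row in the uninjured matrix and Il11 had none in the sorted neonatal matrix. Each gene was followed through the cell classes of each nerve, that is, groups of cells named from marker genes.

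Every library came from wildtype CD1 mice and was made by Drop-seq, in which single cells are captured in droplets and each captured mRNA is tagged with a unique molecular identifier (UMI). The 3 DPI library held cells of the adult distal sciatic nerve 3 d after resection, and the uninjured library held cells of the adult sciatic nerve. Both were cleared of myelin debris with myelin removal beads. One neonatal library (postnatal day 3 to 4) was sorted by FACS and the other (postnatal day 2 to 3) was cleared with beads. There was 1 library for each of these 4 groups, so a difference between groups cannot be told apart from a difference between single preparations. No test was made and no value has a replicate check. The labels and methods do not say how many animals were pooled in a library.

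IL-6 family cytokines signal through receptor complexes that share gp130, the protein encoded by Il6st. IL-6 and IL-11 first bind receptors of their own before they engage gp130. LIF uses gp130 together with the LIF receptor, and CNTF and CLCF1 use both of these with the CNTF receptor. Oncostatin M pairs gp130 with the OSM receptor, and the mouse cytokine binds the LIF receptor only weakly. The complexes activate JAK kinases and STAT3, which induces the feedback inhibitor SOCS3. In peripheral nerve the family is known for its induction after injury and for actions on neurons and glia, and CNTF is known as a product of myelinating Schwann cells.

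The 4 libraries kept 2162 (3 DPI), 1837 (uninjured), 2191 (neonatal FACS) and 5420 (neonatal beads) cells, with medians of 1798, 1632, 1565 and 997 UMIs per cell. The 3 DPI cells fell into Schwann-like (143 cells), endoneurial-like (154), epineurial-like (266), bridge-like (388), dividing mesenchymal-like (151), endothelial-like (245), VSM/pericyte-like (78, vascular smooth muscle and pericytes), macrophage/monocyte-like (392), lymphoid-like (83) and neutrophil-like (40) classes. A further 222 mesenchymal-like cells matched no subtype. They were shallow (median 649.5 UMIs), and Thbs4 and Cp were among the leading genes of both their cluster and the endoneurial-like one. Whether they are shallow endoneurial cells was not tested. Other settings named up to 275 cells at 3 DPI endoneurial-like. Shares of cells given for the 3 DPI endoneurial-like class are thus those of its 154 deep cells. The uninjured classes were Schwann-like (360), endoneurial-like (419), epineurial-like (375), perineurial-like (67), endothelial-like (417), VSM/pericyte-like (183) and immune-like (16, of mixed markers). The uninjured epineurial-like class joined clusters of 285 and 90 cells. Cilp, Mfap4 and Lox were among the leading genes of both the larger one and the 3 DPI bridge-like cluster. At resolution 0.8, 432 cells at 3 DPI were named epineurial-like and 223 bridge-like. Ratios of epineurial-like cells may therefore compare different mixtures of cells, which was not tested. The neonatal endoneurial-like cluster had a marker score of 0.98 for endoneurial and 0.874 for perineurial cells. In a finer clustering (resolution 0.8), 130 sorted and 379 bead-prepared neonatal cells were named perineurial-like, and 91 and 198 endoneurial-like. Values of neonatal endoneurial-like cells may therefore include perineurial cells. Depth differed between classes, and at 3 DPI the median ran from 442 UMIs in neutrophil-like to 7790 in endoneurial-like cells. Levels are given as CPM, the UMIs of a gene summed over a class for each 1000000 UMIs of that class. Any 2 libraries had at most 1 cell barcode in common among the cells kept. All intervals are exact 95% intervals that cover counting error only. Where no cell of a class held a UMI of a gene, the share allowed is 3 cells of that class, by rule and not from such an interval, and it limits cells with a UMI and not cells expressing the gene.

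Promoter windows are shown for Lif and Osmr, which were higher in 3 DPI than in uninjured endoneurial-like cells, for Il6, the ligand found in vascular cells, and for Socs3, the feedback gene of the pathway. Each window is 300 bases of mouse build GRCm38.p6 as given by RefSeq, with 250 bases before and 50 after the gene's start, written along the gene's own strand. Capitals mark matches, on either strand, to short motifs.
Lif, chr11:4257318-4257617, plus strand: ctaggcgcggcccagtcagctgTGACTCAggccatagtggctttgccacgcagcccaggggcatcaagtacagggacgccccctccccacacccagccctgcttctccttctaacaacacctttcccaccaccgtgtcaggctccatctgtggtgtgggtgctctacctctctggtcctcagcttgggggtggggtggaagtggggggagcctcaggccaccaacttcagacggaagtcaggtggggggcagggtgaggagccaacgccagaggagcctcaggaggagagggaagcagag
Osmr, chr15:6874264-6874563, minus strand: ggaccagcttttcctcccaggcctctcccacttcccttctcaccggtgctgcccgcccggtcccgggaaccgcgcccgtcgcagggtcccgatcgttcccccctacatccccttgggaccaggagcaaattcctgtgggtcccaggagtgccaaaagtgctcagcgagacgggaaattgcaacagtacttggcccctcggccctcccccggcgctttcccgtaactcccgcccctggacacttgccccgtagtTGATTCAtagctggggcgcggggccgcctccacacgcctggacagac
Il6, chr5:30012864-30013163, plus strand: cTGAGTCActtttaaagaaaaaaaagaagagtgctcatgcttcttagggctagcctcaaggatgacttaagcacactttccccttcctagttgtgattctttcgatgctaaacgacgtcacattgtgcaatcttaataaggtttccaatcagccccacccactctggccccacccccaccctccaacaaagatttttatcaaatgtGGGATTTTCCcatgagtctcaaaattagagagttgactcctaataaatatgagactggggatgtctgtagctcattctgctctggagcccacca
Socs3, chr11:117969317-117969616, minus strand: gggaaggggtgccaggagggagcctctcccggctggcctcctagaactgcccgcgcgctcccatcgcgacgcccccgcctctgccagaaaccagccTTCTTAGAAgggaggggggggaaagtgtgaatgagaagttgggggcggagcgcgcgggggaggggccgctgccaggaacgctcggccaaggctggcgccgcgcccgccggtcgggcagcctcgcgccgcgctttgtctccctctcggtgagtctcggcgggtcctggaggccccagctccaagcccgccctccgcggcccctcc
The letters searched were TGANTCA (AP-1), TTCNNNGAA (STAT), TTGCNNCAA (C/EBP) and TGACGTCA (CRE), together with the NF-kB motif. Lif matched AP-1 at 228 bases before its start, Osmr at 3 bases after it and Il6 at 249 bases before it. Il6 also matched NF-kB, with the letters GGGATTTTCC, at 44 bases before its start, and Socs3 matched STAT at 154 bases before it. Among 32851 mouse promoter windows of this length, 7.81% held the AP-1 letters, 8.3% the STAT letters, 1.63% the NF-kB letters, 2.08% the C/EBP letters and 1.79% the CRE letters. The windows of Il6st and Lifr matched none of these 5 motifs. Windows were found for 7 of the 9 genes, with none listed for Clcf1 and Osm.

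Among the ligands, each of the 4 that were well detected at 3 DPI had its highest level in a different compartment: Osm in myeloid cells, Clcf1 in Schwann-like cells, Lif in endoneurial-like cells and Il6 in vascular cells. For Il6 this is an order of levels alone, since the intervals of both vascular classes overlapped that of dividing mesenchymal-like cells (60.6 CPM, 47.5 to 76.1). The plot of ligand levels by class shows this arrangement.

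**Figure D1:**
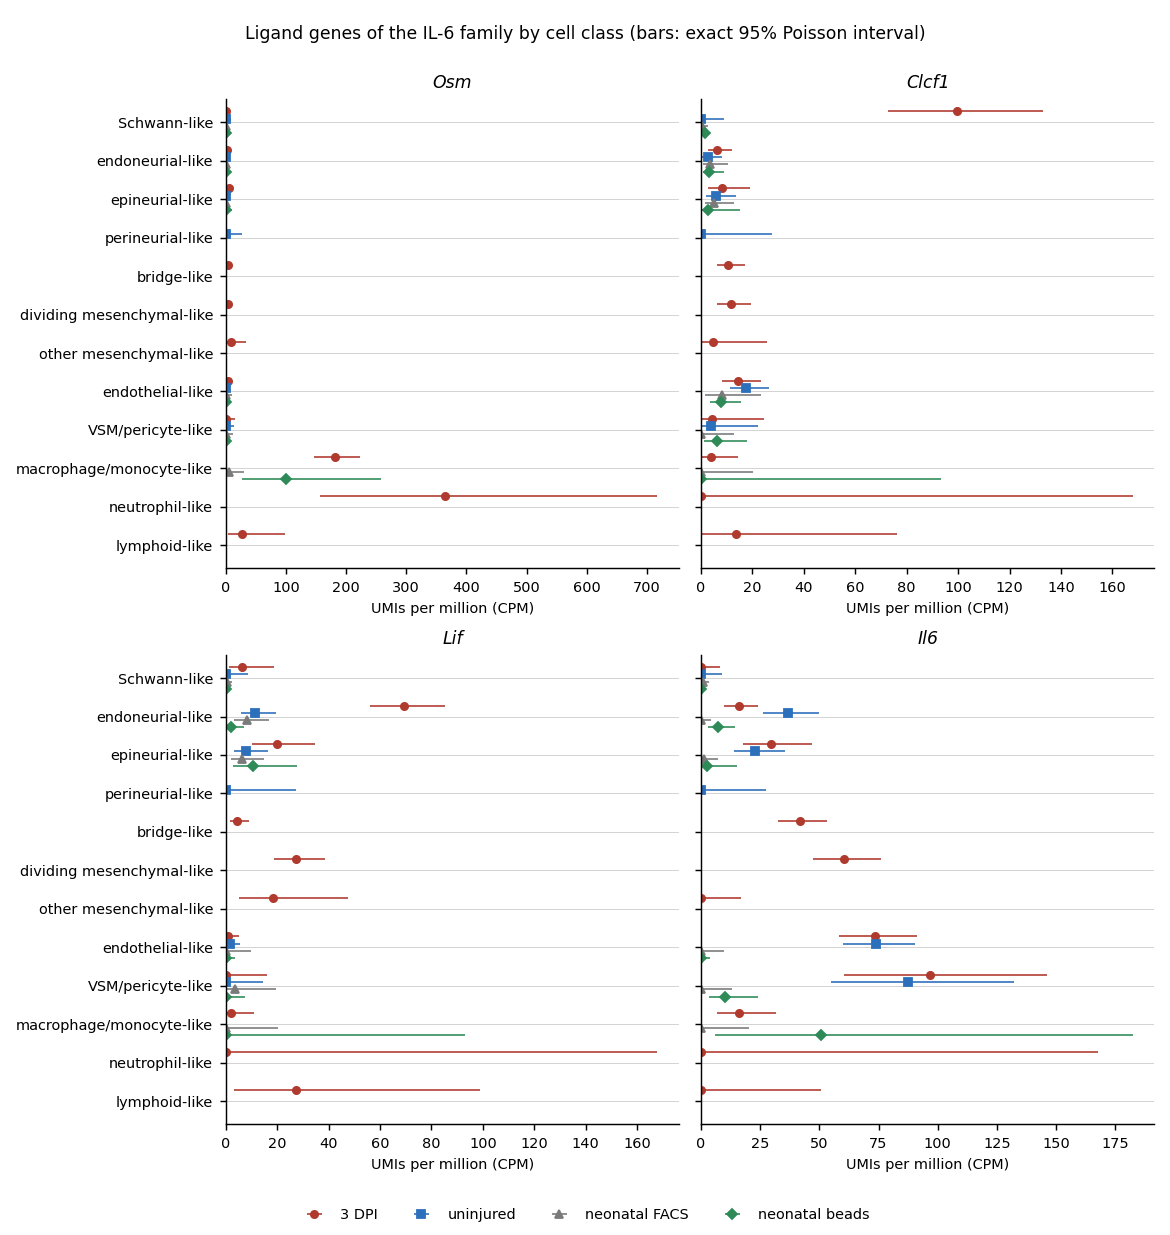
Levels (CPM, x axes) of Osm, Clcf1, Lif and Il6 in the cell classes (y axis); each symbol is 1 library (3 DPI, uninjured, neonatal FACS or neonatal beads), and bars are exact 95% Poisson intervals that cover counting error only. Osm was highest in 3 DPI neutrophil-like and macrophage/monocyte-like cells (364 and 182 CPM), Clcf1 in 3 DPI Schwann-like (99.6 CPM) and Lif in 3 DPI endoneurial-like cells (69.5 CPM), while Il6 overlapped between the adult nerves in both vascular classes; the 16 uninjured immune-like cells are not drawn.

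Osm encodes oncostatin M, a cytokine of activated leukocytes (chromosome 11, 4236420 to 4241026, plus strand, GENCODE vM21 on GRCm38). Macrophage/monocyte-like cells at 3 DPI held 91 Osm UMIs in 48 of 392 cells, a level of 182 CPM (146.8 to 223.9). Neutrophil-like cells held 8 UMIs in 7 of 40 cells, 364 CPM (157.2 to 717.6). These 2 intervals overlap, so the classes could not be ordered. Lymphoid-like cells had 2 UMIs and Schwann-like cells had none, which allows a share of up to 2.10% of the 143 cells. In mesenchymal-like cells 18 UMIs in 1181 cells gave 3.64 CPM, at a median depth of 2759 UMIs against 967 in macrophage/monocyte-like cells. The 1.52% of mesenchymal-like cells with an Osm UMI was taken as the level of background for this gene, far under the 12.2% of the macrophage/monocyte-like cells.

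In the uninjured nerve Osm was represented by 1 UMI, in 1 of the 16 immune-like cells, and by none in any other class. That class was too small for a level to be compared with 3 DPI. The macrophage/monocyte-like cells of the sorted neonatal nerve (neonatal FACS) held 1 UMI in 81 cells, and the bead-prepared ones (neonatal beads) held 4 UMIs in 3 of 38 cells. Neutrophil markers stood at a summed 48550 CPM in the bead-prepared cells, against 33.1 CPM in the sorted ones, but 4 of the 38 cells held 1919 of their 1923 UMIs. Of the 4 Osm UMIs, 1 was in a cell with a neutrophil marker.

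When the 515 immune-like cells at 3 DPI were clustered again, Osm was unevenly spread between the 2 macrophage/monocyte-like sub-clusters. The sub-cluster led by Gpnmb, Ctsl and Sgk1 had Osm in 40 of 163 cells, 24.5% (18.2 to 31.9), at 294 CPM. The sub-cluster led by the antigen presentation genes Cd74 and H2-Aa had it in 8 of 236 cells, 3.39% (1.48 to 6.57), at 46.8 CPM. The first was deeper, with medians of 1232 and 834 UMIs per cell. At an equal depth of 500 UMIs per cell the expected shares were 12% of 153 cells and 1.38% of 193 cells, so the order of the sub-clusters was the same. The sub-clusters were defined on all variable genes of these cells, with the 9 family genes kept out.

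Il6ra, the gene of the IL-6 receptor, had the opposite order, at 91.8 CPM (59.4 to 135.6) in the Gpnmb sub-cluster and 234 CPM (176.3 to 304.6) in the Cd74 sub-cluster. Il6st did not differ beyond its interval, at 118 CPM (80.4 to 165.9) and 132 CPM (89.6 to 187.2). Lifr was at 3.67 CPM (0.093 to 20.5) in the Gpnmb sub-cluster and 80.8 CPM (48.7 to 126.2) in the Cd74 sub-cluster. Collagen RNA was present in all 4 immune sub-clusters, with Col1a1 at 525 to 819 CPM, so low levels of mesenchymal genes in immune cells were read as background. Il1b, the gene of interleukin-1 beta and chosen after its values were seen, was found in 7 of the 7 neutrophil-like and 18 of the 48 macrophage/monocyte-like cells with Osm. All 40 neutrophil-like cells had an Il1b UMI.

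**Figure D2:**
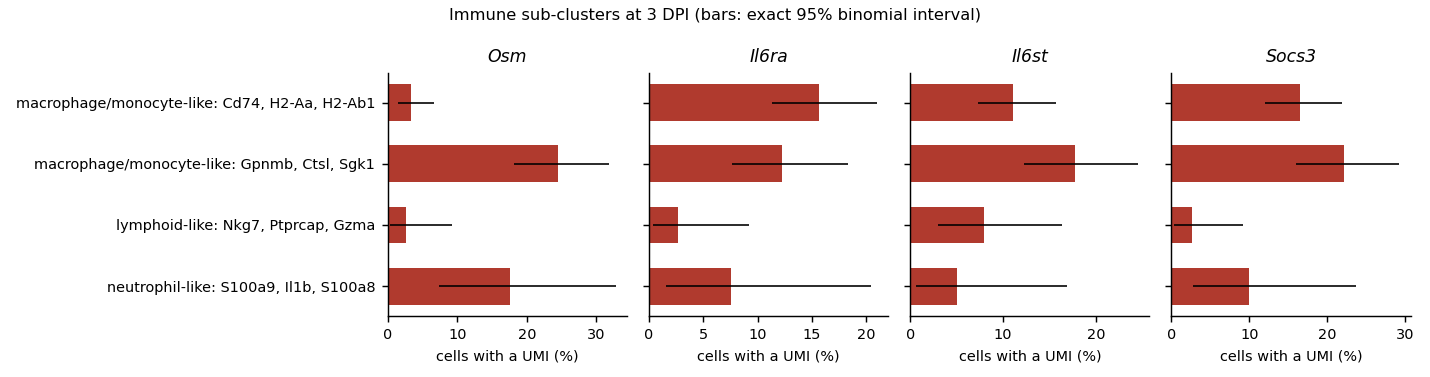
Share of cells with a UMI (%, x axes) of Osm, Il6ra, Il6st and Socs3 in the 4 immune sub-clusters at 3 DPI, labelled by their 3 leading genes (y axis); lines are exact 95% binomial intervals that cover counting error only. Osm stood at 24.5% in the Gpnmb, Ctsl, Sgk1 sub-cluster and at 3.39% in the Cd74, H2-Aa, H2-Ab1 sub-cluster, with intervals that did not overlap.

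Clcf1 encodes cardiotrophin-like cytokine factor 1 (chromosome 19, 4214238 to 4223490, plus strand). Schwann-like cells at 3 DPI held 46 Clcf1 UMIs in 27 of 143 cells, 99.6 CPM (72.9 to 132.8). The 360 uninjured Schwann-like cells held none, which allows a share of up to 0.833%. Set against a floor of 3 counts over the uninjured class, the 3 DPI level was 13.8-fold higher, and the exact interval of the ratio began at 10.8. With all cells at 500 UMIs and a floor of 3 cells, the share was 4.90-fold higher. The neonatal Schwann-like cells held 1 UMI in 1213 sorted cells and 7 UMIs in 3668 bead-prepared cells. Every other class at 3 DPI was lower, and the next by level with more than 1 UMI was the endothelial-like class at 14.3 CPM (8.19 to 23.3), whose interval did not reach that of the Schwann-like cells. Endothelial-like cells were at 17.6 CPM in the uninjured nerve, a ratio of 0.816 (0.403 to 1.61). In GENCODE vM21 8.17% of the exon bases of Clcf1 are shared with another gene on the same strand, AC109138.7.

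Lif encodes leukemia inhibitory factor (chromosome 11, 4257557 to 4272514, plus strand). Endoneurial-like cells at 3 DPI held 92 Lif UMIs in 42 of 154 cells, 69.5 CPM (56.1 to 85.3). The uninjured endoneurial-like cells held 12 UMIs in 12 of 419 cells, 11.3 CPM (5.81 to 19.7), and the ratio was 6.18 (3.37 to 12.4). The neonatal values were 8.23 CPM (3.31 to 17.0) in sorted and 2.002 CPM (0.243 to 7.23) in bead-prepared endoneurial-like cells, both below the 3 DPI level. That neonatal class may include perineurial cells. Because the 3 DPI endoneurial-like cells were the deepest class, the share of cells was also computed at 500 UMIs per cell, where it was 2.92% at 3 DPI and 0.547% in the uninjured nerve. Apart from 2 UMIs in lymphoid-like cells (27.4 CPM, 3.32 to 99.0), Lif was next by level in dividing mesenchymal-like cells, with 33 UMIs in 20 of 151 cells, 27.4 CPM (18.8 to 38.4). Epineurial-like cells held 12 UMIs at 3 DPI and 7 in the uninjured nerve, too few to be compared under the minimum of 20 UMIs. Schwann-like cells held 3 UMIs at 3 DPI and none in the uninjured nerve, and endothelial-like cells held 1 and 2. In those classes the shares of cells with Lif, at most 1.40%, lay under that of the endoneurial-like cells. Endothelial-like cells served as background for Lif. Schwann-like cells could not, because the paper, comparing Schwann cells alone, found Lif almost only in the injured ones. Across the cell types of injured nerve, the paper gives endoneurial cells the largest share with Lif, above Schwann cells. Whether the few Lif UMIs of the Schwann-like cells are background was not tested.

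Il6 encodes interleukin-6 (chromosome 5, 30013114 to 30019981, plus strand). It was a vascular and mesenchymal transcript, and no Schwann-like cell of either adult nerve held a UMI of it (0 of 143 and 0 of 360 cells, which allow up to 2.10% and 0.833%). VSM/pericyte-like cells held 22 UMIs in 8 of 78 cells at 3 DPI (96.6 CPM) and 22 UMIs in 8 of 183 cells in the uninjured nerve (87.4 CPM), a ratio of 1.11 (0.583 to 2.09). Endothelial-like cells held 82 UMIs in 28 of 245 cells at 3 DPI (73.4 CPM) and 97 UMIs in 24 of 417 cells in the uninjured nerve (74.0 CPM), a ratio of 0.992 (0.730 to 1.35). In both vascular classes the share of cells was higher at 3 DPI while the level was close, and the UMIs were concentrated in few cells. With all cells at 500 UMIs, the share of endothelial-like cells with Il6 was 1.92-fold higher at 3 DPI. A single uninjured endothelial-like cell held 30 of the 97 UMIs, and a single 3 DPI cell held 17 of the 82. The neonatal endothelial-like cells held no Il6 UMI in 147 sorted and 479 bead-prepared cells.

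In the mesenchyme Il6 differed by subtype. Endoneurial-like cells were lower at 3 DPI, at 15.9 CPM (21 UMIs in 10 of 154 cells) against 36.6 CPM (39 UMIs in 10 of 419 cells), a ratio of 0.434 (0.243 to 0.756). Epineurial-like cells were at 29.7 CPM at 3 DPI and 23.0 CPM in the uninjured nerve, a ratio of 1.29 (0.643 to 2.57). The dividing mesenchymal-like and bridge-like classes, names that no uninjured cluster was given, held 73 UMIs (60.6 CPM) and 67 UMIs (41.9 CPM). Il6 was therefore spread over 7 classes at 3 DPI, with neighbouring intervals overlapping from VSM/pericyte-like down to endoneurial-like cells.

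Within the uninjured endothelial-like cells Il6 came almost wholly from a single cluster. The cluster led by Lrg1, Selp and Aqp1, of which Selp encodes the adhesion molecule P-selectin of venular endothelium, held 95 of the 97 UMIs, in 22 of 122 cells (183 CPM, 148.3 to 224.0). The cluster led by Cldn5 and Slco1a4, genes of barrier endothelium, held 2 UMIs in 150 cells. The cluster led by Rbp7 and Gpihbp1, genes of capillary endothelium, held none in 145 cells. Of the 24 uninjured endothelial-like cells with Il6, 20 also had a Selp UMI, and of the 28 at 3 DPI also 20 did. Selp was chosen for this count after its values were seen. At 3 DPI the endothelial-like cells formed 1 cluster, and set against the Selp cluster alone the Il6 ratio was 0.401 (0.294 to 0.544). In the uninjured VSM/pericyte-like cells 17 of the 22 Il6 UMIs were in the cluster led by Rgs5 and Kcnj8, genes of pericytes (178 CPM), and 5 in the cluster led by Myh11, a gene of smooth muscle (32.1 CPM). Against the Rgs5 and Kcnj8 cluster alone, the Il6 ratio of the 3 DPI VSM/pericyte-like cells was 0.544 (0.276 to 1.09) in place of 1.11.

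**Figure D3:**
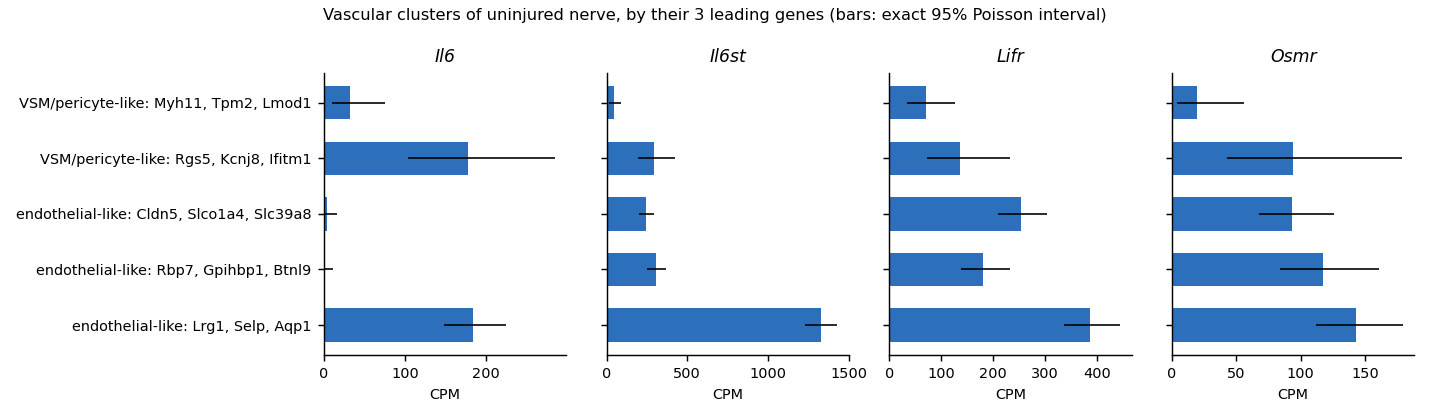
Levels (CPM, x axes) of Il6, Il6st, Lifr and Osmr in the 5 vascular clusters of the uninjured nerve, labelled by their 3 leading genes (y axis); lines are exact 95% Poisson intervals that cover counting error only. Il6 stood at 183 CPM in the Lrg1, Selp, Aqp1 cluster, 4.35 CPM in the Cldn5 cluster and 0 in the Rbp7 cluster, and Il6st at 1327, 246 and 304 CPM.

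Il11 and Cntf were at the limit of detection. Il11, a cytokine of stromal cells (chromosome 7, 4772373 to 4782859, minus strand), had 31 UMIs in the 1181 mesenchymal-like cells at 3 DPI, of which 18 were in 8 of the 151 dividing mesenchymal-like cells (14.9 CPM, 8.85 to 23.6). The uninjured mesenchymal-like cells held 3 Il11 UMIs and the bead-prepared neonatal ones held 2. Cntf (chromosome 19, 12763660 to 12765632, minus strand) had 1 UMI in the cells kept at 3 DPI and 2 in each neonatal library. In GENCODE vM21, 847 of its 1073 exon bases, 78.9%, are shared with Zfp91 on the same strand. Zfp91 had 814 to 1564 UMIs in the kept cells of each library. Reads in the shared bases may have been assigned to Zfp91 or to neither gene, so the counts of Cntf say nothing about its level in Schwann cells.

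The receptors were found in far more cells than the ligands. Il6st, which encodes gp130 (chromosome 13, 112464070 to 112510086, plus strand), was present in every class of every library. At 3 DPI its levels were highest in endothelial-like (916.0 CPM, 860.7 to 973.8) and endoneurial-like cells (890.2 CPM, 840.1 to 942.6), whose intervals overlapped. Mesenchymal-like cells of no subtype (778 CPM), VSM/pericyte-like (649.6 CPM), bridge-like (528 CPM), Schwann-like (426 CPM), epineurial-like (420.3 CPM) and dividing mesenchymal-like cells (316 CPM) followed. The immune classes were lowest, at 91.1 to 123 CPM. In this order 3 pairs of neighbours had intervals that did not overlap: bridge-like and Schwann-like, epineurial-like and dividing mesenchymal-like, and dividing mesenchymal-like and lymphoid-like cells.

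Il6st differed between the adult nerves in some classes and not in others. Endoneurial-like cells held 1178 UMIs in 149 of 154 cells at 3 DPI and 311 UMIs in 192 of 419 cells in the uninjured nerve (292 CPM), a ratio of 3.05 (2.69 to 3.47). VSM/pericyte-like cells held 148 UMIs in 39 of 78 cells against 35 UMIs in 31 of 183 cells (139 CPM), a ratio of 4.67 (3.21 to 6.96). The uninjured VSM/pericyte-like cells were made up of 2 unlike clusters, at 292 CPM in the Rgs5 Kcnj8 cluster and 44.9 CPM in the Myh11 cluster. Against the former alone the ratio was 2.22 (1.48 to 3.46). Schwann-like cells were at 426 CPM against 262 CPM, a ratio of 1.63 (1.28 to 2.07). The uninjured Schwann-like cells were again uneven, with 336 CPM in the non-myelinating and 38.9 CPM in the myelinating cluster. Epineurial-like cells were alike within counting error, at 420.3 and 374 CPM (ratio 1.12, 0.9501 to 1.33).

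In endothelial-like cells Il6st had a ratio of 1.33 (1.22 to 1.46), with 1023 UMIs in 155 of 245 cells at 3 DPI and 902 UMIs in 216 of 417 uninjured cells. A single 3 DPI cell held 143 of the 1023 UMIs and a single uninjured cell held 125 of the 902. Set against the uninjured Selp cluster alone, which held 688 UMIs at 1327 CPM, the direction turned, with a ratio of 0.690 (0.626 to 0.761). The endothelial difference in Il6st thus rested on which uninjured clusters it was set against.

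Lifr encodes the LIF receptor (chromosome 15, 7090614 to 7197489, plus strand). It was highest in the endothelial-like cells of each library. Their interval lay above that of the next class at 3 DPI, and in the uninjured nerve it overlapped only that of the 16 immune-like cells. The adult endothelial-like cells held 220 UMIs in 87 of 245 cells at 3 DPI (197 CPM) and 378 UMIs in 155 of 417 cells in the uninjured nerve (288 CPM), a ratio of 0.683 (0.576 to 0.809). The neonatal endothelial-like cells were at 145 CPM (sorted) and 130 CPM (beads), lower than both adult nerves at their point values. Within the uninjured endothelium the Lrg1 Selp cluster was at 388 CPM, the Cldn5 cluster at 254 CPM and the Rbp7 cluster at 181 CPM.

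Outside the endothelium Lifr was lower. Of the neonatal epineurial-like cells, the sorted ones were at 94.65 CPM (74.5 to 118.6), an interval that overlapped that of the sorted endothelial-like cells. The bead-prepared ones were at 64.8 CPM (41.5 to 96.4). VSM/pericyte-like cells held 6 UMIs at 3 DPI (26.3 CPM) and 24 in the uninjured nerve (95.4 CPM), a ratio of 0.276 (0.0923 to 0.693). Endoneurial-like cells were at 29.5 CPM against 40.3 CPM, a ratio of 0.731 (0.462 to 1.16), and epineurial-like cells at 65.9 CPM against 51.8 CPM, a ratio of 1.27 (0.810 to 1.99). Neither of these 2 ratios was separated from 1. Schwann-like cells held 9 and 12 UMIs (19.5 and 28.9 CPM), and the neonatal Schwann-like cells stood at 34.6 CPM (sorted) and 26.9 CPM (beads), where the larger numbers of cells gave 75 and 108 UMIs.

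Osmr encodes the OSM receptor (chromosome 15, 6813577 to 6874969, minus strand). Its order changed between the adult nerves. In the uninjured nerve it was highest in endothelial-like cells (119 CPM, 101.1 to 139.2), and at 3 DPI in endoneurial-like cells (161 CPM, 140.1 to 184.1). Endoneurial-like cells held 213 UMIs in 98 of 154 cells at 3 DPI and 37 UMIs in 30 of 419 cells in the uninjured nerve (34.7 CPM), a ratio of 4.64 (3.26 to 6.77). Epineurial-like cells held 62 UMIs in 47 of 266 cells against 32 UMIs in 26 of 375 cells (102 and 36.8 CPM), a ratio of 2.78 (1.78 to 4.40). The epineurial-like classes of the adult nerves may hold different mixtures of cells. Endothelial-like cells went the other way, with 101 UMIs in 55 of 245 cells against 156 UMIs in 99 of 417 cells (90.4 and 119 CPM), a ratio of 0.760 (0.586 to 0.982). In both neonatal libraries Osmr was low, at 3.53 and 4.004 CPM in endoneurial-like and 45.5 and 41.3 CPM in endothelial-like cells. Schwann-like cells held 13 UMIs at 3 DPI and 17 in the uninjured nerve, and immune-like cells at 3 DPI held 4 in 515 cells.

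**Figure D4:**
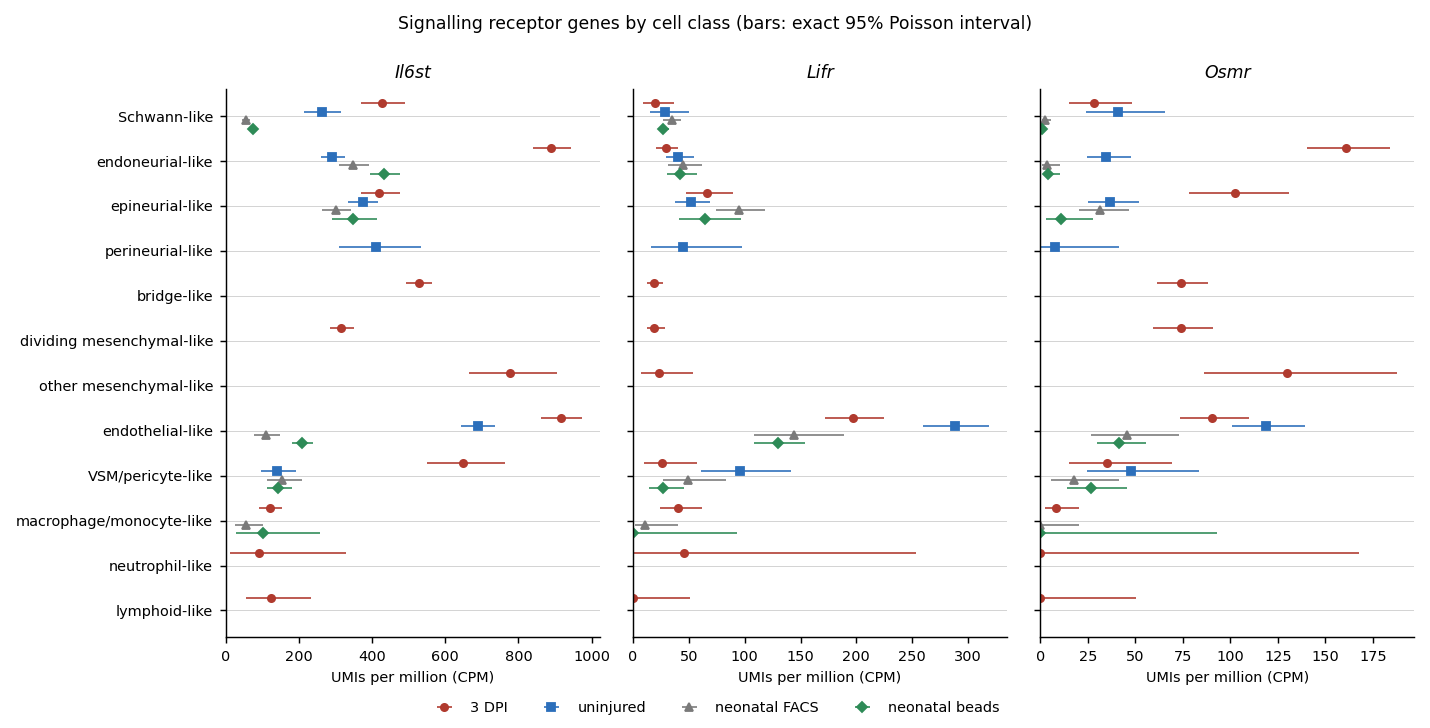
Levels (CPM, x axes) of Il6st, Lifr and Osmr in the cell classes (y axis); each symbol is 1 library and bars are exact 95% Poisson intervals that cover counting error only. Osmr in endoneurial-like cells stood at 161 CPM at 3 DPI, 34.7 CPM in the uninjured nerve and at most 4.004 CPM in the neonatal nerves; the 16 uninjured immune-like cells are not drawn.

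Because the receptors work in pairs, cells with UMIs of both chains were counted. Il6st and Osmr were found together in 97 of 154 endoneurial-like cells at 3 DPI, 63.0% (54.8 to 70.6), and in 14 of 419 uninjured ones, 3.34% (1.84 to 5.54). The median depth of these cells was 7790 and 2157 UMIs, and depth raises such shares. In endothelial-like cells, at median depths of 2091 and 1865 UMIs, the pair was found in 17.1% of cells at 3 DPI and in 17.0% of uninjured cells. Il6st and Lifr were found together in 28.2% and 27.6% of the endothelial-like cells, and in 4.08% (sorted) and 6.89% (beads) of the neonatal ones. Of the 30 endoneurial-like cells with Lifr at 3 DPI, 26 also had Osmr. These counts are given without those expected from the separate shares of each gene. They do not show that the genes went together beyond those shares. Nearly all 3 DPI endoneurial-like cells held Il6st, so its pair with Osmr mostly restates the share of cells with Osmr.

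Taken gene by gene, the share of family members past a 3-fold difference between the adult nerves was set beside that of all genes. A gene entered this count in a class with at least 20 UMIs over both nerves. In endoneurial-like cells 5 of the 9 family genes entered, and 3 (Lif, Il6st and Osmr) were at least 3-fold higher at 3 DPI, where 7.49% of all 9389 genes entered were higher and 3.78% lower. Il6st was close to that limit, at 3.05-fold, and fell to 2.97-fold with at least 500 genes per cell and to 2.48-fold with classes drawn from each cell's own markers. The median log2 ratio of the 5 was 1.61, against 0.23 over all genes. In Schwann-like cells 1 of 4 (Clcf1) was higher, against 9.14% of all genes higher and 7.36% lower. In VSM/pericyte-like cells 1 of 4 (Il6st) was higher and 1 (Lifr) lower, against 5.16% and 4.61%. In epineurial-like cells none of 4 passed, where 2.78% of all genes were higher and 2.13% lower, and in endothelial-like cells none of 5 passed, where 3.1% were higher and 2.11% lower. The medians of the family were 0.08, -0.15, 0.36 and -0.29 in these 4 classes, and those of all genes were 0.14, 0.07, 0.18 and 0.03. With at most 5 family genes in a class, these counts are a description.

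**Figure D5:**
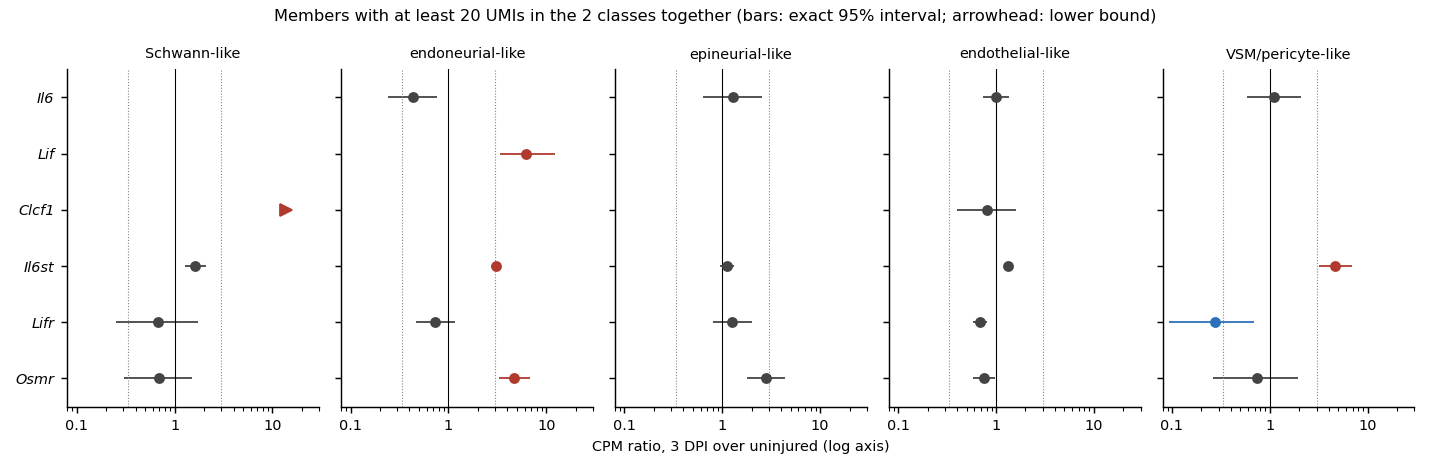
CPM ratio of 3 DPI over uninjured nerve (x axes, log scale) for family genes (y axis) with at least 20 UMIs in a class, in each of 5 shared classes. Bars are exact 95% intervals that cover counting error only. The arrowhead (labelled a lower bound) is a ratio against a floor of 3 counts. Dotted lines mark 3-fold, and red and blue mark ratios past 3-fold higher and lower. Lif, Il6st and Osmr in endoneurial-like cells lie past 3-fold (6.18, 3.05 and 4.64), and Lifr in VSM/pericyte-like cells lies past it in the other direction (0.276).

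The remaining genes of the pathway were taken from lists of receptors, JAK-STAT mediators, feedback inhibitors and STAT3 targets. Among the other receptor genes, Il6ra was at 160.3 CPM in macrophage/monocyte-like cells at 3 DPI and at 298 CPM in those of the sorted neonatal nerve. The 40 neutrophil-like cells at 3 DPI held 4 UMIs of it (182 CPM, 49.6 to 466.2). The neutrophil-like and macrophage/monocyte-like classes could therefore not be ordered. Il6ra was higher in 3 DPI than in uninjured Schwann-like cells, with 31 against 7 UMIs (67.1 and 16.8 CPM, ratio 3.98, 1.72 to 10.7). Of the 7 uninjured UMIs of Il6ra, 6 were in the 81 myelinating cells (58.4 CPM). Il11ra1, the IL-11 receptor, was an epineurial and perineurial transcript, at 638 CPM in 3 DPI and 1194 CPM in uninjured epineurial-like cells and 789.6 CPM in perineurial-like cells. It was lower in 3 DPI Schwann-like cells, with 4 against 23 UMIs (ratio 0.157, 0.0393 to 0.458). Cntfr, the CNTF receptor, was found in 24 of 67 perineurial-like cells (246 CPM, 169.2 to 345.2) and stood at no more than 32.9 CPM in the endoneurial-like, epineurial-like and Schwann-like cells of the 4 libraries.

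Of the 8 JAK-STAT mediators, 1 passed 3-fold in any shared class. That was in VSM/pericyte-like cells, where 4 of them had enough UMIs and 5.16% of all genes were higher. Stat3, the main transcription factor of the pathway, was higher in 3 DPI VSM/pericyte-like cells, at 179.9 against 55.6 CPM (41 and 14 UMIs, ratio 3.24, 1.73 to 6.43). In endoneurial-like cells it was at 208 against 71.2 CPM, a ratio of 2.92 (2.26 to 3.81), and in Schwann-like and endothelial-like cells the ratios were 0.942 (0.659 to 1.35) and 1.08 (0.902 to 1.29). Stat3 and Il6st were thus both higher at 3 DPI in endoneurial-like and VSM/pericyte-like cells.

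The feedback gene Socs3 went the other way. It was lower at 3 DPI in Schwann-like cells (95.2 against 1504 CPM, ratio 0.0633, 0.0456 to 0.0860), in endoneurial-like cells (175 against 986 CPM, ratio 0.178, 0.154 to 0.205) and, within 3-fold, in epineurial-like, endothelial-like and VSM/pericyte-like cells (ratios 0.564, 0.521 and 0.363). Socs1, a relative of Socs3, was also lower in endoneurial-like cells (ratio 0.208, 0.114 to 0.358). In the neonatal Schwann-like cells Socs3 was at 36.0 CPM (sorted) and 164 CPM (beads). Genes that respond to tissue dissociation moved with it. Of 11 such genes (among them Fos, Jun, Egr1, Atf3 and Hspa1a), 10 were at least 3-fold lower at 3 DPI in Schwann-like, 9 in endoneurial-like, 3 in epineurial-like, 5 in endothelial-like and 10 in VSM/pericyte-like cells. Of all genes, 7.36%, 3.78%, 2.13%, 2.11% and 4.61% were lower in these classes, in the same order. Their summed level was 5241 to 9242 CPM in these classes at 3 DPI and 9491 to 44730 CPM in the uninjured nerve. Their part in the level of Socs3 was not tested.

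The genes listed as STAT3 targets did not share a direction. In endoneurial-like cells 4 of 12 were at least 3-fold higher at 3 DPI (Timp1, Serpina3n, Pim1 and Saa3) and 2 lower (Junb and Myc). Of all genes, 7.49% were higher and 3.78% lower in that class, and 9.14% and 7.36% in Schwann-like cells. Timp1, which encodes an inhibitor of matrix metalloproteinases, was at 2016 against 15.9 CPM in endoneurial-like cells (2668 and 17 UMIs) and was at least 3-fold higher in every shared class but the epineurial-like one, by 22.0-fold to 127-fold. In VSM/pericyte-like cells that difference rested on 45 against 1 UMIs (ratio 49.7, 8.48 to 2006). In epineurial-like cells it was at 199 against 92.1 CPM (ratio 2.17, 1.62 to 2.91). Saa3, an acute phase gene, had 626 UMIs in endoneurial-like cells at 3 DPI and none in the uninjured ones. Against the floor of 3 counts it was 168-fold higher there and 10.03-fold higher in epineurial-like cells. In Schwann-like cells 2 of 9 were higher (Timp1, ratio 39.8, 19.1 to 99.9, and Il4ra with 26 against 1 UMIs, ratio 23.4, 3.84 to 959) and 3 lower (Junb, Cebpb and Serpina3n, ratios 0.0450, 0.249 and 0.0393). Serpina3n, which encodes a protease inhibitor, therefore had opposite directions in endoneurial-like (ratio 4.17, 2.79 to 6.44) and Schwann-like cells.

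In each of the other classes 1 listed target was at least 3-fold higher. Of all genes, 2.78% were higher and 2.13% lower in epineurial-like cells. The shares were 3.1% and 2.11% in endothelial-like and 5.16% and 4.61% in VSM/pericyte-like cells. Epineurial-like cells had 1 of 11 higher (Saa3) and 1 lower (Fgl2, ratio 0.242). Endothelial-like cells had 1 of 12 higher (Timp1) and 2 lower (Lcn2, ratio 0.115, and Ier3, ratio 0.331). VSM/pericyte-like cells had 1 of 7 higher (Timp1) and 3 lower (Junb, Cebpb and Ier3, ratios 0.223, 0.261 and 0.162). The median log2 ratio of the list was -0.36 in Schwann-like, 0.54 in endoneurial-like, 0.18 in epineurial-like, -0.88 in endothelial-like and -1.18 in VSM/pericyte-like cells. Junb is an immediate early gene like several of the dissociation genes above, and their part in the lower values was again not tested.

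The pattern of each family gene over 33 pairs of class and library, each of at least 50 cells, was compared with that of 12020 genes by the Pearson correlation of log2(CPM + 10). The pairs share libraries, so the correlations are descriptions. Osm was most like Cd300lf (r = 0.961), Mmp12 and F10, and Lif was most like Aldh1a3 (r = 0.871), Saa1 and Tnfrsf23. Clcf1 was most like Ucn2 (r = 0.76), Pvt1 and Hmga1, and Il6 most like Gadd45g (r = 0.762), Hspb8 and Synm. Of the receptors, Il6st was most like Atp8b1 (r = 0.924), Mgp and Zbtb20, Lifr most like Tek (r = 0.827), the gene of the angiopoietin receptor of endothelium, Ptprg and Hspa12b, and for Osmr the genes given here are Heg1 (r = 0.827) and Gm7676 (r = 0.821). Il11 (37 UMIs in all kept cells) and Cntf (5 UMIs) were too sparse for this comparison.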

How the data were processed

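Single cells of 4 nerve preparations were measured by Drop-seq. The authors made digital gene expression matrices following the Drop-seq cookbook, and deposited raw UMI counts for each gene and barcode. The submitters' processing notes name the mouse build mm10. Neither the labels nor the methods name the strand setting of the counting. The matrices held 8123103 (3 DPI), 4513814 (uninjured), 5110171 (neonatal FACS) and 7634799 (neonatal beads) UMIs in 2500, 2000, 2500 and 6200 barcodes.

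Barcodes under 200 genes, above 10% mitochondrial or above 5% hemoglobin UMIs were removed, then the 5% with the highest scrublet doublet scores in each library (scanpy 1.11.5). Counts were normalized with scran 1.30.0 and clustered in Seurat 5.3.0 (R 4.3.3) at resolution 0.4, from 20 principal components of 2000 variable genes, with the family and pathway genes kept out of the variable genes. The neonatal libraries were clustered together. Clusters were named from marker lists (class means relative to the highest cluster), and the score thresholds were chosen after the clusters were seen. The names were rebuilt here and may differ from those of the study.

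UMIs were summed by class. Shares have exact Clopper-Pearson, CPM exact Poisson and ratios exact conditional binomial 95% intervals (scipy 1.17.1). A class at 0 was set to 3 counts in ratios. Shares at equal depth are hypergeometric expectations at 500 or 1000 UMIs, without cells below that depth. A gene was called at a ratio of at least 3 with at least 20 UMIs in the 2 classes together. The calculation was tested on simulated data. The genes named beside the family are Il6ra, Cntfr, Il11ra1, Socs3, Stat3 and list members past 3-fold in a class, with at least 10 UMIs in the higher group, and the 3 genes most like each member in pattern. Some results under this rule are not reported here. The members and lists were chosen with earlier results of these data known. Gene positions come from GENCODE vM21 and promoters from RefSeq. The alternatives were other filters, clustering settings, class rules, depths and UMI minimums.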

Additional observations from a re-analysis of the deposited data

Results flagged for a closer look

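The Osmr level moved in opposite directions in different classes of the adult nerves. Its CPM ratio of 3 DPI over uninjured nerve was 4.64 in endoneurial-like and 2.78 in epineurial-like cells, and 0.760 in endothelial-like cells. With 1 library for each nerve the difference between classes was not tested.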

How the results depend on the processing

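Of 117 recomputed values of the main results, 110 moved by less than their counting interval or stayed within 1.5 times the count, 7 moved further and 0 changed direction. The Clcf1 ratio in Schwann-like cells (13.8 against a floor of 3 counts) became 4.90 as a ratio of shares at 500 UMIs per cell and 10.4 against the non-myelinating cells alone. The Il6st ratio in VSM/pericyte-like cells (4.67) became 2.72 as a ratio of shares and 2.22 against the Rgs5 Kcnj8 cluster, a comparison chosen after seeing the data. With at least 50 UMIs required, 0 family genes were at least 3-fold higher in Schwann-like cells, because Clcf1 has 46 UMIs. In epineurial-like cells 1 (Osmr) was higher without doublet removal and at resolution 0.8, and the cause was not tested. In endoneurial-like cells the count of 3 fell to 2 (Lif and Osmr) with at least 500 genes per cell and with at most 5% mitochondrial UMIs, and Il11 took the place of Il6st when classes were drawn from each cell's own markers. Of 82 values of single genes, 17 moved, among them the share of 3 DPI endoneurial-like cells with Lif, which was 16.7% to 19.6% when the classes were drawn in 4 other ways. The Il6st ratio in endothelial-like cells (1.33) turned to 0.690 against the uninjured Selp cluster alone, also chosen after seeing the data. Shares of cells are limited by depth, and levels under about 3 UMIs in a class could not be detected. No paired analysis was possible because each group has 1 library.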
